A study of Homo sapiens with 4 samples.

Results

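The genes described here encode the enzymes that write and erase chemical marks on histones and DNA. They were taken by symbol from the table of expressed genes: every gene whose name begins with KDM, KMT, HDAC, SIRT, KAT, PRMT or DNMT followed by a digit, every SETD gene, TET1, TET2 and TET3, and EZH1, EZH2, EP300 and CREBBP. The rule used names and no measured value, and it found 79 of 11972 listed genes. They fall into 8 classes: 21 lysine methyltransferases, 17 lysine demethylases, 10 acetyltransferases, 11 deacetylases, 7 sirtuins, 7 arginine methyltransferases, 3 DNA methyltransferases and 3 TET dioxygenases.

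Methylation of histone lysines can mark active or silent chromatin depending on the residue, acetylation generally goes with open chromatin, and methylation of CpG sites in DNA at promoters generally goes with silencing. The methyltransferases draw on S-adenosylmethionine, the acetyltransferases on acetyl-CoA and the sirtuins on NAD+. The TET enzymes and the Jumonji group of lysine demethylases are dioxygenases that need iron and 2-oxoglutarate. FTO, which removes the methyl group from N6-methyladenosine in RNA, needs the same cofactors.

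RNA sequencing was done on 143B cells, a human osteosarcoma line. The 4 libraries formed 2 groups of 2: shFTO, cells stably carrying a plasmid that knocks down FTO, and shCtrl, cells stably carrying a control plasmid. Both groups were grown in high-glucose DMEM with serum and puromycin. The labels do not state the number of hairpins or clones, nor separate cultures for the libraries. The p-values thus reflect only how far libraries of a group lay apart, and that distance may be technical. It was estimated from the gene itself together with the other genes tested.

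The deposited values were FPKM, fragments scaled to transcript length and to the number mapped in the library, so levels of different genes can be set side by side. They summed to between 200555 and 212531 per library, and read depth was unknown. FTO had 0.268 and 0.242 FPKM in the shFTO libraries, against 1.14 and 0.665 FPKM in the shCtrl libraries. Every listed gene had a mean of at least 0.5001 FPKM in 1 group or more, and both shFTO values of FTO were under that. FTO was thus listed through shCtrl only, and its direction was set by entry. It reached 1 FPKM in shCtrl replicate 1 alone and was not tested. Of 8 mesenchymal and osteosarcoma markers, 6 were listed, led by VIM at 253 to 329 FPKM. RUNX2 stayed at or below 0.577 FPKM, and COL1A2 and THY1 were not listed. Of 12 markers of epithelial, leukocyte and endothelial cells, 3 were listed: KRT18 at 110 to 163 FPKM, EPCAM at 2.43 to 4.46 FPKM and CD68 at 11.9 to 25.8 FPKM.

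The comparison of shFTO with shCtrl asked whether the transcript of any of these enzymes differed with FTO knockdown. None of them passed the test. Of the 73 enzyme genes that reached 1 FPKM in at least 2 libraries, 0 had a limma adjusted p under 0.05 (smallest adjusted p = 0.288), against 0.0276% of all 10873 genes tested. At an unadjusted limma p under 0.05 there were 2, HDAC10 (entered through shFTO only) and KDM6B, both above shCtrl, and 0 below it. Without shCtrl replicate 1 neither of these had an unadjusted p under 0.05 and KMT5A alone did, and without shCtrl replicate 2 HDAC10 alone did. The background was larger: 7.11% of all genes tested were above shCtrl and 3.74% below it at that p, against 2.74% and 0% of the enzyme genes. The other 6 listed enzyme genes, TET1, HDAC11, SIRT4, KDM4B, KDM8 and KMT5C, were too low for the test and are given from a fit over all listed genes.

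The differences were small. On the log2(FPKM + 1) scale, which understates the change of low genes, the 73 enzyme genes ran from -0.39 for SIRT1 to 0.55 for DNMT3B, with a median of 0.09. The median over all genes tested was 0.02. Of the enzyme genes, 3 were at least 0.5 away from 0, which is 4.11% of them, against 9.82% of all genes tested. For 70 of the 73 the 95% confidence interval lay within -1 and 1. The same held for 41 of the 44 with a mean of at least 5 FPKM, where a value of 1 is closest to a doubling. The other 3 were SETD2, KAT7 and DNMT3B. With a median standard error of 0.164, changes of the size seen in most of these genes were not detectable with 2 libraries a group.

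More enzyme genes lay above shCtrl than below it, 49 against 24. That is 67.1% above, beside 53.8% of all genes tested. For 26 of the 73 enzyme genes both shFTO values exceeded both shCtrl values (35.6%, against 24.6% of all genes tested). For 7 both were lower (9.59%, against 18.1%). The 49 and the 26 include HDAC10 and HDAC6, which entered the test through the shFTO libraries only, so their direction was set by entry. Through the shCtrl libraries only, 0 enzyme genes entered. An exact two-sided permutation test on a single gene cannot go below 0.333 with 2 libraries against 2. Lysine methyltransferases and demethylases made up most of the upper side, with 17 of 20 and 12 of 15 tested genes above shCtrl. Arginine methyltransferases leaned the other way, with 5 of 7 below shCtrl.

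**Figure D1:**
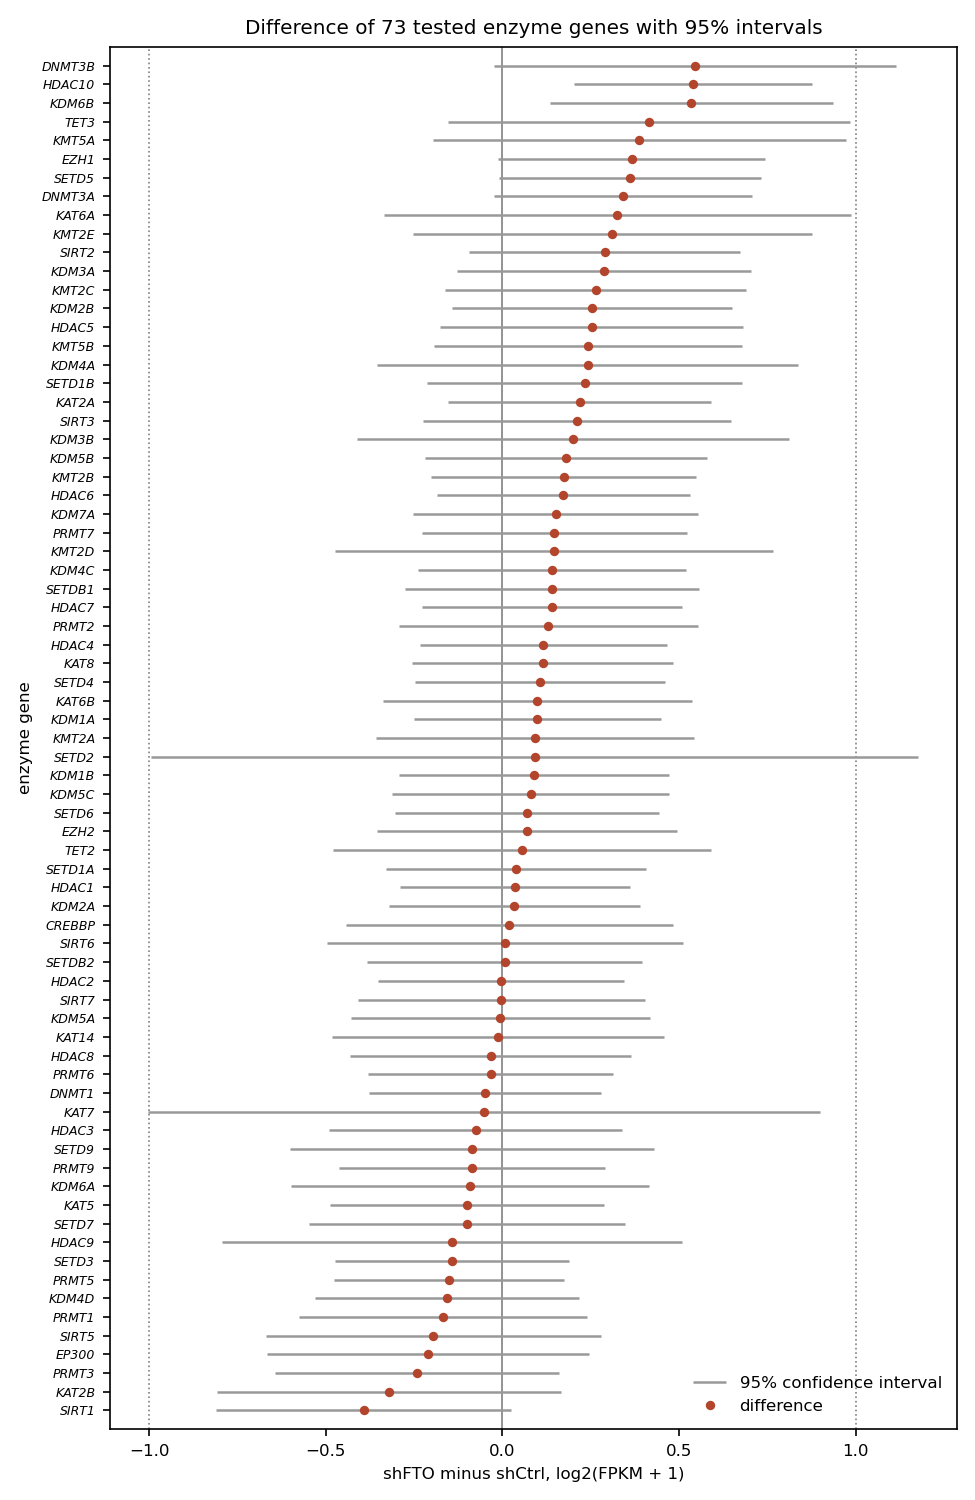
Difference between shFTO and shCtrl on the log2(FPKM + 1) scale for the 73 tested enzyme genes, sorted by size, with limma's 95% confidence interval as a line and dotted lines at -1 and 1. HDAC10 and KDM6B are the only genes whose interval does not cross 0, and SETD2 has the widest interval.

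**Figure D2:**
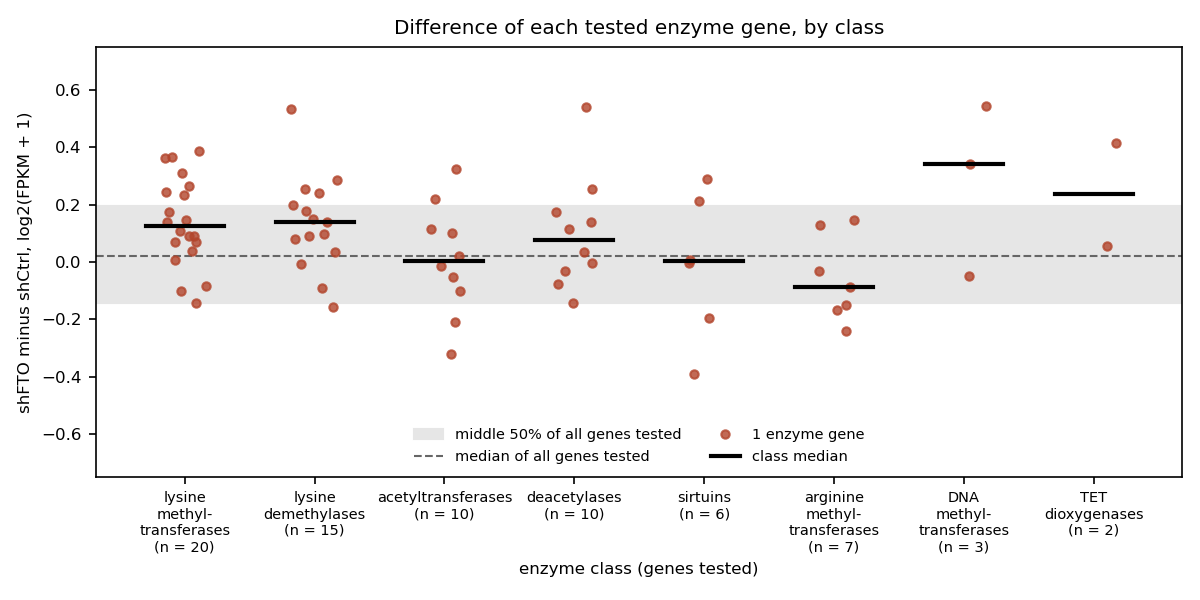
Difference between shFTO and shCtrl on the log2(FPKM + 1) scale for each tested enzyme gene (points) in its class, with the class median as a bar and the median and middle 50% of all 10873 genes tested as a dashed line and a grey band. Lysine methyltransferases and demethylases sit mostly above the dashed line, and arginine methyltransferases sit mostly below it.

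Among the lysine methyltransferases the level was highest for SETD3, which methylates a histidine of actin, and next for KMT2A, the MLL1 enzyme that methylates histone H3 lysine 4. SETD3 had 21.0 and 22.4 FPKM in shFTO, against 24.0 and 24.1 FPKM in shCtrl. Both shFTO libraries were below both shCtrl libraries, by a difference of -0.14 on the log2(FPKM + 1) scale that did not pass (SE 0.13, limma adjusted p = 0.734). The level of SETD3 exceeded that of every other gene of its class in every library. Below it, most neighbours in the order of levels overlapped across the 4 libraries, and the class as a whole spanned mean levels from 22.9 FPKM down to 0.995 FPKM for KMT5C. Its tested members had a median difference of 0.12, 8 of 20 had both shFTO values above both shCtrl values, and 1 had both below, beside 24.6% and 18.1% of all genes tested.

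SETD5, a large SET-domain protein of chromatin, had 11.7 and 12.5 FPKM in shFTO, against 9.76 and 8.70 FPKM in shCtrl. The groups did not overlap, and the difference of 0.36 did not pass (SE 0.15, limma adjusted p = 0.466). KMT5A, which places a single methyl group on histone H4 lysine 20, had 19.0 and 16.5 FPKM in shFTO, against 16.8 and 10.5 FPKM in shCtrl, and its groups overlapped. Of the 6 KMT2 and SETD1 enzymes listed beside KMT2A, which all act on histone H3 lysine 4 or belong to that family, KMT2B, KMT2C and SETD1B had groups that did not overlap, each with shFTO above shCtrl. Over all genes tested, 24.6% had both shFTO values above both shCtrl values. KMT2B had 5.72 and 5.95 FPKM in shFTO, against 5.18 and 4.93 FPKM in shCtrl, a difference of 0.17 (limma adjusted p = 0.716).

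EZH2 and EZH1 are the alternative catalytic subunits of the Polycomb complex PRC2, which methylates histone H3 lysine 27. EZH2 had 7.63 and 9.73 FPKM in shFTO, against 8.10 and 8.25 FPKM in shCtrl, so the shCtrl pair lay inside the shFTO pair. EZH1 had 3.47 and 3.24 FPKM in shFTO, against 2.25 and 2.51 FPKM in shCtrl. Both shFTO libraries were above both shCtrl libraries for EZH1, at 3.36 ± 0.157 against 2.38 ± 0.181 FPKM (SD, n = 2 each). The EZH1 difference of 0.37 did not pass over all genes (SE 0.15, 95% confidence interval -0.01 to 0.74, limma adjusted p = 0.467). Of the summed level of the pair, EZH1 made up 31.2% and 25% in shFTO and 21.7% and 23.3% in shCtrl, and EZH2 was the higher of the pair in every library.

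Among the lysine demethylases, KDM1A (LSD1), a flavin-dependent enzyme of histone H3 lysine 4, had the highest level, at 34.7 and 31.7 FPKM in shFTO, against 29.2 and 32.7 FPKM in shCtrl. Its groups overlapped. The order below it was KDM2A, KDM1B, KDM4A and KDM3B, whose ranges overlapped from one to the next. Mean levels in the class ended at 0.868 FPKM for KDM4B, and the median difference of the tested members was 0.14.

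KDM6B (JMJD3; chromosome 17, 7743222 to 7758114, plus strand, hg19) removes methyl groups from histone H3 lysine 27, opposing PRC2. KDM6B had 5.89 and 6.93 FPKM in shFTO, against 4.06 and 4.14 FPKM in shCtrl. Both shFTO libraries stood above both shCtrl libraries, averaging 6.41 ± 0.732 FPKM against 4.10 ± 0.0582 FPKM in shCtrl (SD, n = 2 each). On the log2(FPKM + 1) scale KDM6B differed by 0.54 (95% confidence interval 0.14 to 0.94, SE 0.16), with an unadjusted limma p of 0.0172 that did not pass over all genes (adjusted p = 0.357). In the authors' deposited table KDM6B had p = 0.0342 and q = 0.535. Before adjustment, DNMT3A, EZH1 and KMT2B also fell under 0.05 in the authors' deposited values, which they did not in limma. The share of all listed genes under 0.05 in the deposited values was not computed, so these genes have no background beside them. Their deposited q-values were 0.503 for DNMT3A, 0.523 for EZH1 and 0.549 for KMT2B. DNMT3A, not HDAC10 or KDM6B, was lowest of the enzyme genes in the deposited values. KDM6A (UTX), the X-linked relative of KDM6B with the same substrate, had 1.38 and 2.34 FPKM in shFTO, against 2.14 and 1.87 FPKM in shCtrl. The shFTO pair of KDM6A thus enclosed the shCtrl pair. KDM6B made up 81.0% and 74.8% of the summed level of KDM6A and KDM6B in shFTO and 65.4% and 68.9% in shCtrl.

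The promoters of HDAC10 and KDM6B, with the smallest p among enzyme genes above shCtrl, and of SIRT1, with the smallest p among those below it, are shown by sequence. Each sequence is the promoter window of the gene in RefSeq (GRCh38.p14), from 250 bases before to 50 bases after the start of transcription, read 5′ to 3′ on the gene's strand. The windows are chr22:50251216-50251515 on the minus strand for HDAC10, chr17:7833967-7834266 on the plus strand for the more upstream of 2 starts of KDM6B, and chr10:67884406-67884705 on the plus strand for SIRT1. Capitals mark CG, the dinucleotide that DNA methyltransferases methylate and TET enzymes oxidise after methylation.
HDAC10: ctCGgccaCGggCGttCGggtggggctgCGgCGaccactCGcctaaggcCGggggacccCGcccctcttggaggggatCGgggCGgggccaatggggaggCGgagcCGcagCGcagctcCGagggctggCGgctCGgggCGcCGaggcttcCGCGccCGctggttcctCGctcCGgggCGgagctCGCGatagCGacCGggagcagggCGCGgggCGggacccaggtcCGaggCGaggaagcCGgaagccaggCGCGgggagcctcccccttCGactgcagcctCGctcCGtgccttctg
KDM6B: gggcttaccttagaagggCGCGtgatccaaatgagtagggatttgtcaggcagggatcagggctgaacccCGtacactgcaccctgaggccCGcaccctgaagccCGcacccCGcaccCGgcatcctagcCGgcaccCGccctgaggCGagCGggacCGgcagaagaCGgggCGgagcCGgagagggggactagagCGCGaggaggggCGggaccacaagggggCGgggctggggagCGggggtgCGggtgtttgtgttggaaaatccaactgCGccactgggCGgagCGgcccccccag
SIRT1: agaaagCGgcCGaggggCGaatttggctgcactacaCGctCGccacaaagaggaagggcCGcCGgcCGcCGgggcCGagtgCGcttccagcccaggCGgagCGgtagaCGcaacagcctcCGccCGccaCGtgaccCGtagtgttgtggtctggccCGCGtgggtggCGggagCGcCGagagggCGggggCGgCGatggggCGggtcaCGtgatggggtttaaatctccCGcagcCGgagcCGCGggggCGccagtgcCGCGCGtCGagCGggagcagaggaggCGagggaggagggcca
The motif searched was CG, which reads the same on both strands. HDAC10 held 40 CG, KDM6B 24 and SIRT1 39 in 300 bases, while the window at the other start of KDM6B, not printed, held 2. Promoter windows were found for 74 of the 79 enzyme genes, 117 windows in all, with a median of 29 CG and quartiles of 20 and 36. The 13748 windows of all listed genes had a median of 26, and 84.4% of them held at least 10 CG, as did 89.7% of the windows of the enzyme genes. The E-box CACGTG, also the same on both strands and containing CG, occurred 2 times in the SIRT1 window and 0 times in the other 2 windows. It was present in 13.7% of windows of the enzyme genes and in 9.49% of those of all listed genes. Methylation itself was not measured.

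The acetyltransferases ran in mean level from 9.78 FPKM for KAT2A (GCN5) down to 3.63 FPKM for KAT6B. KAT2A had 9.94 and 11.3 FPKM in shFTO, against 8.92 and 8.98 FPKM in shCtrl, and the difference of 0.22 did not pass (SE 0.15, limma adjusted p = 0.636). KAT2A overlaps a listed clone-named gene on its strand, so its value is uncertain where reads could be divided. Its close relative KAT2B (PCAF) lay the other way, at 2.67 and 3.74 FPKM in shFTO, against 4.63 and 3.83 FPKM in shCtrl. The groups of both genes did not overlap, and the KAT2B difference was -0.32 (SE 0.20, limma adjusted p = 0.602). In all, 5 of the 10 acetyltransferase genes were above shCtrl and 5 below, with a median of 0.00 on the log2(FPKM + 1) scale.

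EP300 and CREBBP encode the paired coactivators p300 and CBP, which acetylate histone H3 lysine 27 at enhancers. EP300 had 6.91 and 7.16 FPKM in shFTO, against 9.61 and 7.15 FPKM in shCtrl, so a single shCtrl library stood above the other 3. CREBBP had 5.12 and 6.26 FPKM in shFTO, against 6.28 and 4.94 FPKM in shCtrl, with no separation. The differences were -0.21 (SE 0.18, limma adjusted p = 0.717) and 0.02 (SE 0.19, limma adjusted p = 0.981). EP300 was the higher of the pair in every library, and CREBBP made up 42.6% and 46.6% of their sum in shFTO and 39.5% and 40.9% in shCtrl.

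Among the zinc-dependent deacetylases, HDAC1 and HDAC2, the catalytic subunits shared by the SIN3, NuRD and CoREST corepressor complexes, had levels that stayed within 1.2-fold over the 4 libraries. HDAC1 had 32.1 and 33.7 FPKM in shFTO, against 31.4 and 32.8 FPKM in shCtrl. HDAC2 had 13.1 and 12.6 FPKM in shFTO, against 13.2 and 12.5 FPKM in shCtrl. The groups overlapped for both. The intervals of their differences were -0.29 to 0.36 for HDAC1 and -0.35 to 0.35 for HDAC2 on the log2(FPKM + 1) scale. The order HDAC1, HDAC2, HDAC7, HDAC8, HDAC3 was the same in every library with no overlap between neighbours, and the remaining HDAC genes all averaged 2.01 FPKM or less.

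The deacetylases with the largest differences were among the lowest. HDAC10, a cytoplasmic deacetylase of polyamines (chromosome 22, 50683612 to 50689834, minus strand, hg19), had 1.21 and 1.32 FPKM in shFTO, against 0.480 and 0.638 FPKM in shCtrl. Both shFTO libraries were above both shCtrl libraries, averaging 1.27 ± 0.0803 FPKM against 0.559 ± 0.112 FPKM in shCtrl (SD, n = 2 each), a ratio of 2.26. On the log2(FPKM + 1) scale HDAC10 differed by 0.54 (95% confidence interval 0.20 to 0.88, SE 0.14), with an unadjusted limma p of 0.00804 that did not pass (adjusted p = 0.288). HDAC10 and HDAC6 were the enzyme genes that entered the test through the shFTO libraries only, since both shCtrl values were under 1 FPKM, so a difference was built into their entry. HDAC10 also overlaps MAPK12 on its strand, and reads could be divided between them. In the authors' deposited table HDAC10 had p = 0.022 and q = 0.511.

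HDAC11, the sole class IV deacetylase, had 0.821 and 1.28 FPKM in shFTO, against 0.516 and 0.475 FPKM in shCtrl. It was below the expression minimum, and in the fit over all listed genes its difference of 0.45 did not pass (SE 0.16, limma adjusted p = 0.407). Its shCtrl mean of 0.495 FPKM was under the 0.5001 FPKM that every listed gene reached in 1 group or more. HDAC11 was thus listed through shFTO only, and its direction was set by entry. HDAC6, a cytoplasmic deacetylase of tubulin, had 1.34 and 1.02 FPKM in shFTO, against 0.934 and 0.918 FPKM in shCtrl. Its groups did not overlap, and the difference was 0.17 (limma adjusted p = 0.707). Of the 10 tested HDAC genes, 5 had both shFTO values above both shCtrl values and 0 had both below, beside 24.6% above and 18.1% below over all genes tested. The 5 include HDAC10 and HDAC6, whose direction was set by how they entered the test.

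Among the sirtuins SIRT1, a nuclear deacetylase of histones and of p53, had the highest level in every library and the lowest difference of all tested enzyme genes. SIRT1 (chromosome 10, 69644427 to 69678147, plus strand, hg19) had 7.51 and 7.84 FPKM in shFTO, against 11.6 and 9.28 FPKM in shCtrl. Both shFTO libraries lay below both shCtrl libraries, averaging 7.68 ± 0.233 FPKM against 10.4 ± 1.66 FPKM in shCtrl (SD, n = 2 each). The difference of -0.39 did not pass (SE 0.17, 95% confidence interval -0.81 to 0.03, limma adjusted p = 0.477), and it ran from -0.54 without shCtrl replicate 2 to -0.24 without shCtrl replicate 1. SIRT6 and SIRT7, the other sirtuins of the nucleus, followed in level, and their differences were 0.01 and 0.00. SIRT2, which deacetylates tubulin in the cytoplasm, had 1.68 and 2.15 FPKM in shFTO, against 1.34 and 1.42 FPKM in shCtrl, without overlap (limma adjusted p = 0.557). The mitochondrial sirtuins SIRT3, SIRT4 and SIRT5 averaged 1.93, 0.796 and 1.71 FPKM over the 4 libraries.

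The arginine methyltransferases held the highest levels of the whole set. PRMT5, which makes symmetric dimethylarginine, had 42.5 and 46.6 FPKM in shFTO, against 49.4 and 49.7 FPKM in shCtrl. PRMT1, the main enzyme of asymmetric dimethylarginine, had 38.3 and 33.3 FPKM in shFTO, against 36.1 and 44.7 FPKM in shCtrl. Both shFTO values of PRMT5 were below both shCtrl values, while those of PRMT1 overlapped. The PRMT5 difference of -0.15 did not pass (SE 0.13, 95% confidence interval -0.48 to 0.18, limma adjusted p = 0.718). PRMT3, which methylates a ribosomal protein, had 11.2 and 13.8 FPKM in shFTO, against 15.4 and 14.5 FPKM in shCtrl, again without overlap (difference -0.24, limma adjusted p = 0.629). PRMT7 lay the other way without overlap, at 3.53 and 3.43 FPKM in shFTO, against 2.93 and 3.16 FPKM in shCtrl. The median of the 7 genes was -0.09.

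DNMT1, which copies DNA methylation after replication, was the dominant DNA methyltransferase and did not separate the groups. DNMT1 had 24.9 and 25.4 FPKM in shFTO, against 26.7 and 25.4 FPKM in shCtrl (difference -0.05, 95% confidence interval -0.38 to 0.28, limma adjusted p = 0.924), and it overlaps S1PR2 on its strand. DNMT3A and DNMT3B, which set new methylation, were both higher in both shFTO libraries, by differences that did not pass. DNMT3A had 2.86 and 3.06 FPKM in shFTO, against 2.11 and 2.15 FPKM in shCtrl (difference 0.34, SE 0.15, limma adjusted p = 0.477). DNMT3B had 9.27 and 6.11 FPKM in shFTO, against 4.33 and 5.43 FPKM in shCtrl, and its shFTO values were spread (difference 0.55, SE 0.23, limma adjusted p = 0.468). Leaving out shFTO replicate 1 gave DNMT3B a difference of 0.28, and leaving out shFTO replicate 2 gave 0.81. DNMT1 accordingly made up 67.2% and 73.5% of the summed level of the 3 genes in shFTO and 80.6% and 77.0% in shCtrl.

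TET3, TET2 and TET1 oxidise methylated cytosine, the first step of active DNA demethylation. Their levels kept the order TET3, TET2, TET1 in every library, with no overlap between neighbours. TET3 had 4.75 and 7.28 FPKM in shFTO, against 4.68 and 3.71 FPKM in shCtrl, so a single shFTO library stood well above the other 3, and the groups only just failed to overlap (difference 0.42, SE 0.23, limma adjusted p = 0.566). Leaving out shFTO replicate 1 gave TET3 a difference of 0.68, and leaving out shFTO replicate 2 gave 0.15. TET2 had 1.29 and 2.12 FPKM in shFTO, against 1.90 and 1.28 FPKM in shCtrl. TET1 had 0.891 and 0.903 FPKM in shFTO, against 0.640 and 0.434 FPKM in shCtrl, both shFTO values being higher. TET1 was below the expression minimum, and its difference of 0.31 did not pass in the fit over all listed genes (SE 0.13, limma adjusted p = 0.474).

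**Figure D3:**
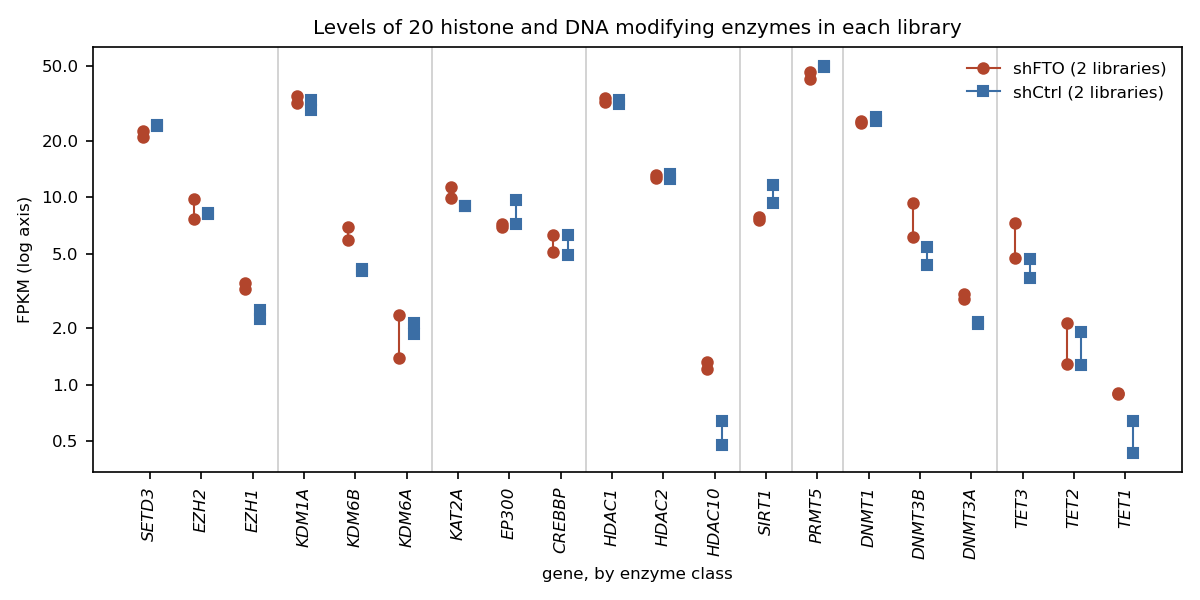
FPKM on a log axis for 20 enzyme genes in the shFTO libraries (circles) and the shCtrl libraries (squares), with a line joining the 2 libraries of a group and grey lines between enzyme classes. HDAC1, HDAC2, DNMT1 and KDM1A sit at about the same height in both groups. KDM6B, EZH1, DNMT3A, DNMT3B, KAT2A, TET1, TET3 and HDAC10 show both shFTO circles above both shCtrl squares, and the direction of HDAC10 was set by entry. SIRT1, SETD3 and PRMT5 show both circles below both squares. Of all genes tested, 24.6% lay above in this way and 18.1% below.

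Libraries of the same group lay far apart for some enzymes. Of the 79 genes, 31 stayed within 1.2-fold between the libraries of both groups, and 3 differed by more than 2-fold between the libraries of a group. The 3 were HDAC9, SETD2 and KAT7. SETD2, the enzyme that places the third methyl group on histone H3 lysine 36, had 6.97 and 14.4 FPKM in shFTO, against 13.9 and 6.25 FPKM in shCtrl. KAT7 (HBO1), which acetylates histones H3 and H4, had 3.46 and 6.73 FPKM in shFTO, against 7.32 and 3.45 FPKM in shCtrl. For both genes shFTO replicate 2 and shCtrl replicate 1 stood at one level and shFTO replicate 1 and shCtrl replicate 2 at another. Their intervals were therefore wide, from -1.0 to 1.18 for SETD2 and from -1.0 to 0.90 for KAT7, and a change within them was not detectable.

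This crossed pattern was shared by other enzymes with long transcripts. Across the 79 genes, the difference of shFTO replicate 2 minus replicate 1 correlated with that of shCtrl replicate 1 minus replicate 2 at r = 0.45 on the log2(FPKM + 1) scale. The correlation was 0.19 over the 10873 genes tested. The 2 differences have no library in common, but genes within a library share its preparation and are not independent. Of the 21 enzyme genes whose longest coding transcript reached 8 kb, 17 were higher both in shFTO replicate 2 and in shCtrl replicate 1, as were 17 of the 58 shorter ones. The medians for the 20 tested long ones were 0.23 and 0.24. Over all genes tested of that length, 889 in number, the medians were 0.18 and 0.19, and for 2279 genes under 2 kb they were -0.11 and -0.17. The enzyme genes tested had a median transcript length of 4833 bases, against 3408 over all genes tested. Between the groups themselves the relation to length was weaker, with r = 0.20 between log2 length and the shFTO minus shCtrl difference over the 73 enzyme genes and 0.08 over all genes tested. Its part in the differences of single enzymes was not tested.

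**Figure D4:**
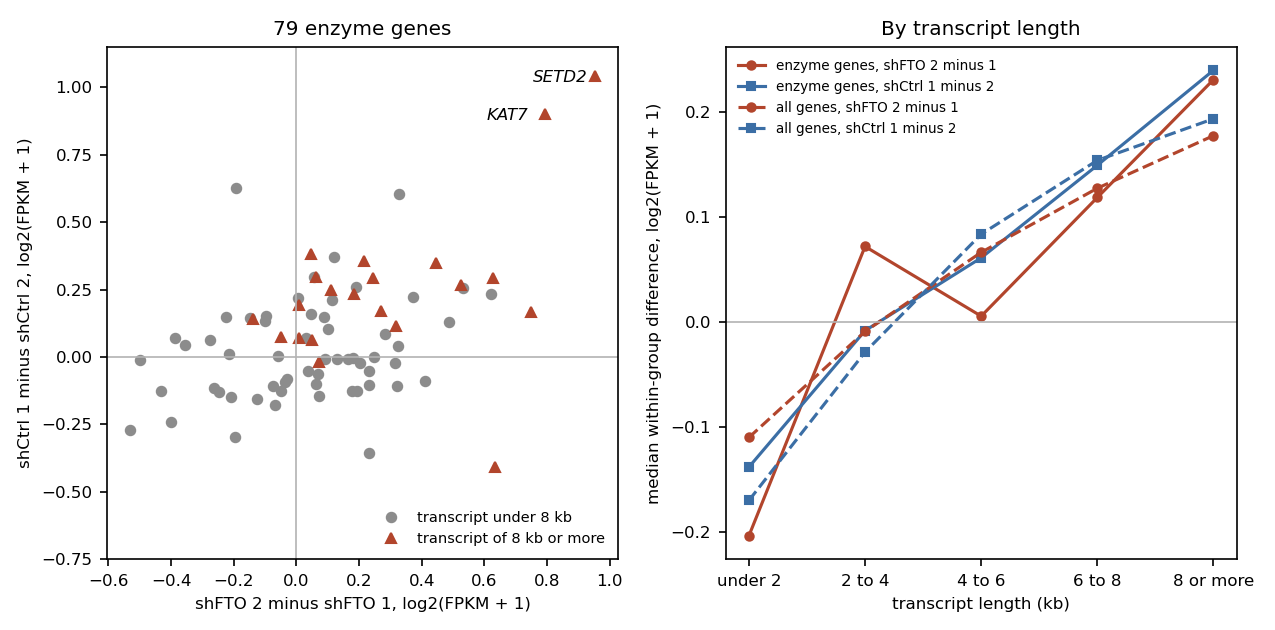
Left, for each of the 79 enzyme genes, the difference between the 2 shFTO libraries against the difference between the 2 shCtrl libraries on the log2(FPKM + 1) scale, with triangles for transcripts of 8 kb or more; right, medians of both differences by transcript length for the tested enzyme genes (solid, 6 to 20 genes a point) and all genes tested (dashed). SETD2 and KAT7 lie farthest out at the upper right, and the medians run from below 0 in the shortest class to above 0 in the longest.

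Genes that work with these enzymes were listed by complex or role and compared in the same fit. Of 119 tested partner genes, 0 passed (limma adjusted p under 0.05), 4 were above shCtrl at an unadjusted limma p under 0.05 and 5 were below it. The 4 are 3.36% of them, under the 7.11% of all genes tested, and the 5 are 4.2%, near the 3.74% of all genes tested. The mean was above shCtrl for 68 of them, or 57.1%, against 53.8% of all genes tested, and the median difference was 0.07. The 9 genes at that p are given with their values. IDH2, which makes 2-oxoglutarate in mitochondria, had 19.4 and 13.8 FPKM in shFTO, against 8.73 and 9.10 FPKM in shCtrl (difference 0.81, SE 0.20, limma adjusted p = 0.286). NNMT, which consumes S-adenosylmethionine to methylate nicotinamide, had 6.35 and 3.63 FPKM in shFTO, against 8.60 and 9.38 FPKM in shCtrl (difference -0.77, limma adjusted p = 0.375). The folate enzyme gene MTHFD1 had 37.0 and 34.6 FPKM in shFTO, against 47.2 and 46.1 FPKM in shCtrl (limma adjusted p = 0.412). Groups did not overlap for any of the 3, which were picked by p in these same libraries. Over all genes tested, 42.6% had groups that did not overlap.

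Outside the symbol rule, NSD2, which methylates histone H3 lysine 36, had 12.8 and 14.2 FPKM in shFTO, against 9.80 and 8.53 FPKM in shCtrl (difference 0.51, limma adjusted p = 0.357). HAT1, which acetylates newly made histone H4, had 19.9 and 14.6 FPKM in shFTO, against 26.3 and 26.4 FPKM in shCtrl (difference -0.60, limma adjusted p = 0.357). TDG, the glycosylase that removes oxidised cytosine made by TET enzymes, had 4.46 and 7.49 FPKM in shFTO, against 10.6 and 11.5 FPKM in shCtrl (difference -0.82, limma adjusted p = 0.343). These 3, also picked by p in these libraries, had groups that did not overlap, as did 42.6% of all genes tested. Of them, 0 passed. The bromodomain reader gene BRD3 had 9.46 and 11.7 FPKM in shFTO, against 6.73 and 6.49 FPKM in shCtrl (limma adjusted p = 0.322). The CoREST gene RCOR2 had 1.26 and 1.45 FPKM in shFTO, against 0.618 and 0.673 FPKM in shCtrl (limma adjusted p = 0.300), and it entered the test through the shFTO libraries only.

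PRC2 partners had 4 of 9 genes above shCtrl (median -0.05), and EED, the subunit that binds methylated histone H3 lysine 27, had 4.06 and 2.98 FPKM in shFTO, against 5.37 and 5.19 FPKM in shCtrl (difference -0.48, limma adjusted p = 0.438). COMPASS partners, genes that work with the KMT2 and SETD1 enzymes, had 4 of 12 above shCtrl with a median of -0.10. HDAC corepressor subunits had 14 of 24 above shCtrl (median 0.04), and acetyltransferase complex partners had 16 of 24 (median 0.10). Enzymes outside the symbol rule had 14 of 23 above shCtrl (median 0.13), readers and DNA methylation partners 9 of 13 (median 0.12), and cofactor metabolism 7 of 14 (median 0.04).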

How the data were processed

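Expression was measured in 2 shFTO and 2 shCtrl libraries of 143B cells, grouped by title and treatment label. Poly(A) RNA was selected on oligo(dT) beads and the second cDNA strand made with dUTP, per the labels' protocols. Tools and build in the submitters' processing notes were STAR 2.5.2b, StringTie, HISAT2 2.0.5, cutadapt and hg19, with no role assigned to any, and the use of strand in counting was not stated there. The authors deposited FPKM per library for 11972 protein-coding genes, per the file headers, all with a mean of at least 0.5001 FPKM in 1 group or more. The authors' deposited group columns were recomputed as means of log2(FPKM + 1), their deposited fold (ratio) as 2 to the power of the log2 difference, and their deposited p-value and q-value were quoted only where named.

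The test was limma 3.58.1 (R 4.3.3), applied to log2(FPKM + 1) modelling the trend of variance with level and without a replicate block, over the 10873 genes that reached 1 FPKM in at least 2 libraries, with Benjamini-Hochberg adjustment over all of them and a threshold of 0.05. The procedure was run on simulated data with independent noise and with changes larger than any seen in the enzyme genes. That run does not bear on changes of the size seen here. At most 6 values were identical between any pair of libraries, and all 4 libraries were used. A listed neighbour overlaps 6 enzyme genes on their own strand and 14 on the opposite strand, which leaves those values uncertain if reads were split. Values in every library were given for enzyme genes with an unadjusted p under 0.05, the highest gene of each class, and named close relatives; the other genes named were chosen after their values were seen. The members, classes, partner lists and tests were chosen with earlier results of these data known. Transcript lengths were the longest coding transcript in the GENCODE 29 basic set, and promoter windows came from RefSeq, both matched by ID or symbol, with no coordinates converted. Alternatives covered the pseudocount, the filter, the scaling, the variance model, a replicate block and leaving out each library. Read depth is unknown, so no counting interval was computed.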

Additional observations from a re-analysis of the deposited data

How the results depend on the processing

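The count of enzyme genes past the adjusted threshold was 0 in limma under every alternative run. At an unadjusted limma p under 0.05, 2 enzyme genes were above shCtrl and 0 below. There was 1 above when the mean had to reach 5 FPKM (2.27%, against 5.36% of all genes in that fit). With no filter 3 were above (HDAC11 added), 3.8% against 7.26% of all. With no mean-variance trend 3 were above (EZH1 added), 4.11% against 7.21% of all. SIRT1 was the 1 below with quantile normalization (1.37%, against 4.57% of all) and with median-ratio scaling (1.37%, against 5.05%). Leaving out 1 library gave 1 to 6 above and 0 to 2 below: 6 above without shFTO replicate 1, 2 below without shFTO replicate 2, and 1 above without shCtrl replicate 1 and likewise without shCtrl replicate 2. The share above moved with that of all genes tested: 8.22% of enzyme genes against 11.3% of all without shFTO replicate 1, 4.11% against 8.05% without shFTO replicate 2, 1.37% against 3.04% without shCtrl replicate 1, and 1.37% against 3.51% without shCtrl replicate 2. The 2 below without shFTO replicate 2 are 2.74%, against 6.14% of all. Where a group is left with 1 library, it is assumed to vary like the other group.

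The labels do not say whether same-numbered libraries were paired. Their deviations from the group means correlated at r = -0.19 over the genes tested. With 2 libraries a group, this is the r = 0.19 of the crossed pattern with its sign turned, so it cannot decide the pairing. With the replicate block the counts were 2 above (2.74%, against 5.63% of all genes tested) and 0 below (against 3.09%), and 0 passed. With the crossed pairing, added after seeing the data, they were 5 above (6.85%, against 8.07% of all genes tested) and 1 below (1.37%, against 5.09%), and 0 passed.

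The median difference over the enzyme genes, 0.09, shifted by less than 0.0561, the spread between replicates, under each alternative that gave a value, from 0.05 without shFTO replicate 2 to 0.12 without shFTO replicate 1. With a pseudocount of 0.1 in place of 1, the HDAC10 difference was 1.06 against 0.54. It did not pass there either (limma adjusted p = 0.302). The lysine demethylase median of 0.14 was 0.19 with that pseudocount and 0.09 with quantile normalization. Signs of differences near 0 turned. With quantile normalization CREBBP was -0.027 and TET2 -0.031, and with median-ratio scaling CREBBP was -0.021 and HDAC1 -0.011. Leaving out 1 library gave -0.13 to 0.17 for CREBBP, -0.088 to 0.23 for EZH2, -0.039 to 0.034 for HDAC2, -0.34 to 0.15 for KDM6A and -0.17 to 0.28 for TET2. EP300 ran from -0.40 to -0.02, KAT2A from 0.14 to 0.30 and PRMT5 from -0.21 to -0.08. Leaving out 1 library gave class medians from -0.09 to 0.10 for sirtuins, 0.03 to 0.22 for lysine demethylases, -0.07 to 0.14 for acetyltransferases and -0.0075 to 0.48 for TET dioxygenases. With a mean of 5 FPKM or more, the sirtuin median was -0.19 and the deacetylase median -0.0024. The causes were not tested. TET1 was below the filter and has no alternative value.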
